A study of Mus musculus with 12 samples.

Results

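The growth hormone (GH) and insulin-like growth factor (IGF) axis of the liver was followed here through 9 genes, chosen by symbol as the hepatic GH receptor, its secreted products and binding proteins, and a pair of genes that follow the sex-specific pattern of GH release: Ghr, Igf1, Igfals, Igfbp1, Igfbp2, Igfbp3, Igfbp4, Cux2 and Hsd3b5. All 9 had a row among the 11289 genes of the expression table. Liver RNA of 12 C57BL/6J mice, 8 to 10 weeks old and housed free of specific pathogens, was sequenced with paired-end reads of 150 bp, and the mice fell into 3 groups of 4. The Con A group received 15 mg/kg concanavalin A (Con A), a jack bean lectin that stimulates T cells and causes acute hepatitis, by the tail vein and PBS 30 min later. The Con A + MSCs group received the same dose and then 2000000 mesenchymal stromal cells of human umbilical cord, and livers were collected 24 h later. The Ctrl group is labelled only as control, and what these mice were given is not stated. No genetic change is given for any group.

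Pituitary GH binds its receptor on hepatocytes and signals through JAK2 and STAT5, which drives the liver to make most of the circulating IGF1. In blood IGF1 is held in a complex with IGFBP3 and the acid-labile subunit encoded by Igfals, while IGFBP1, IGFBP2 and IGFBP4 carry it in smaller complexes. In rodents the rhythm of GH release differs between the sexes, and sets the expression of many liver enzymes, so that Cux2 is a repressor typical of the female liver and Hsd3b5 a steroid-metabolizing enzyme typical of the male liver.

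The deposited value of a gene is a whole-number score that had already been normalized between mice. Every mouse had a median of 352 and an upper quartile of 830, and totals lay between 17649654 and 17657159, so sequencing depth is unknown and no counting error is given. Each mouse held only 2546 to 2549 distinct scores, and high scores were shared between genes and mice. Scores were compared between mice and not between genes. Every gene in the table reached 64 in at least 2 mice, as a filter at that score would leave. Under such a filter a gene high only in Ctrl, or only after Con A, has a row through those mice, which sets its direction. Among genes of the axis and its lists named below, Cux2, Hsd3b5, Hao2 and Htra1 met it only through Ctrl. Socs1, Mmp9, Phlda3, Cyp4a12a and Gstp2 met it only through mice given Con A. Changes are differences of log2(score + 1) fitted with limma in all 12 mice, and the term called stands for a change over 1.5-fold whose adjusted p was under 0.05. All adjusted p-values are from that limma fit, by the Benjamini-Hochberg method over the 11289 genes. Each group entered 2 of the 3 comparisons, so the comparisons are not independent of each other. The replicates are labelled only by number, and an exact two-sided permutation test of 4 against 4 mice cannot go below p = 0.0286.

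After Con A, 7 of the 9 genes fell and 1 rose. Ghr, Igf1, Igfals, Igfbp2, Igfbp3, Cux2 and Hsd3b5 were lower than in Ctrl, Igfbp1 was higher, and Igfbp4 was not called. Cux2 and Hsd3b5 reached 64 only in Ctrl mice, so under a filter at that score they could only fall. Both are included in the counts and the median of this comparison. Over all genes tested 19.2% were called down and 19.5% up in this comparison, 38.8% in either direction. In 6 genes every Con A mouse was lower than every Ctrl mouse and in 1 gene every Con A mouse was higher, against 23.4% and 27.1% of all genes. The median log2 fold change of the 9 genes was -2.13, and that of all genes tested was 0.045. Between the groups given Con A, without and with MSCs (called here the Con A groups), 1 of the 9 genes was called, Igfbp1, which fell with MSCs, against 4.38% of all genes called down and 4.2% called up, 8.58% in either direction. Igfbp1 was also the single member whose Con A groups did not overlap, being lower in every MSC-treated mouse, as were 11.6% of all genes, and 0 members were higher in every MSC-treated mouse, against 11.9%.

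**Figure D1:**
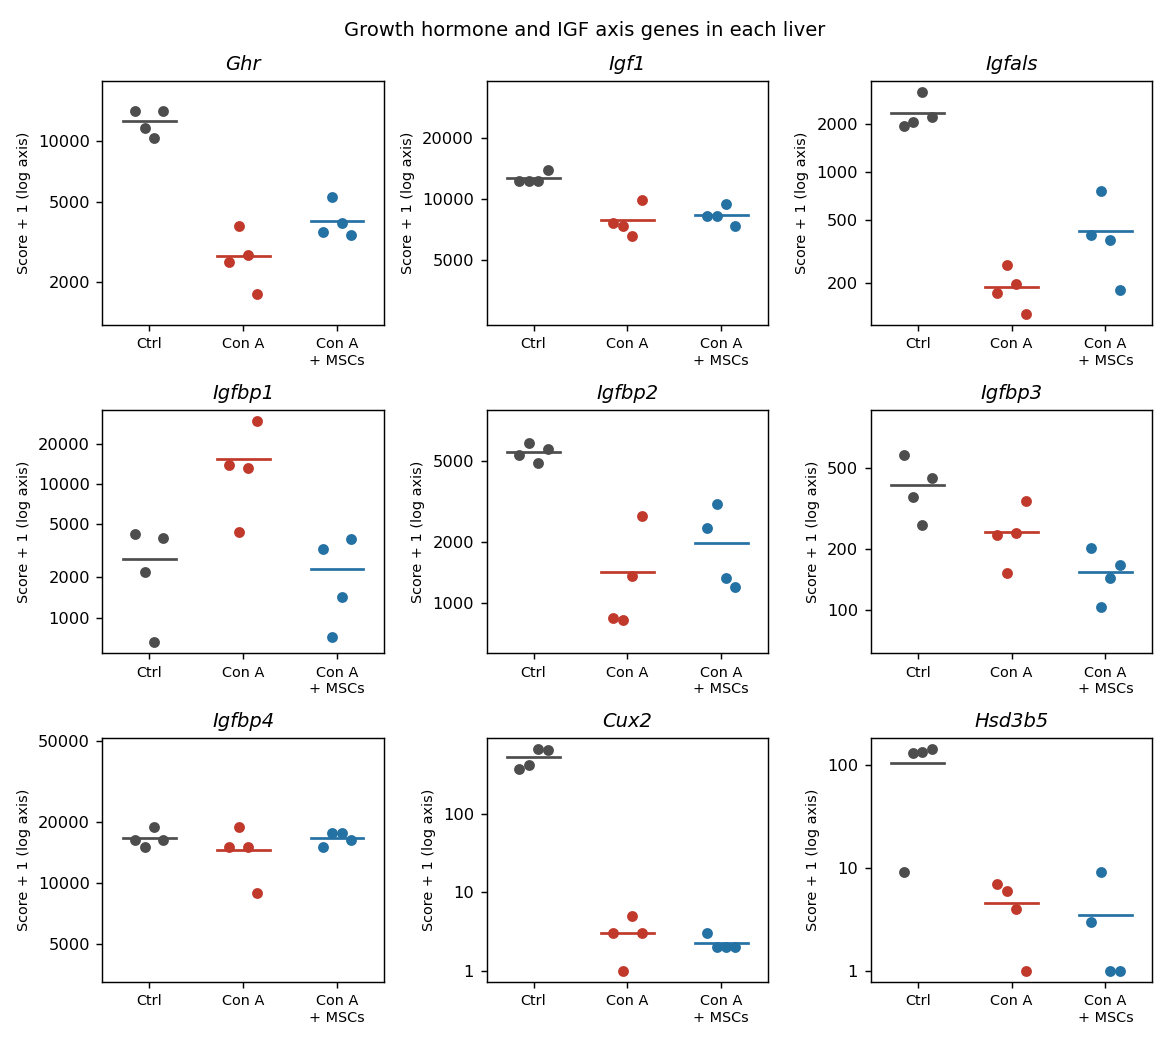
Scores of the 9 genes in each mouse, plotted as score + 1 on log axes that differ between panels, with 1 point per mouse and a line at the mean of the 4 mice of a group. Ghr, Igf1, Igfals, Igfbp2 and Cux2 lie lower in every Con A and Con A + MSCs mouse than in every Ctrl mouse, while Igfbp1 lies higher in the Con A mice than in all mice of the other groups.

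Ghr, the receptor through which GH acts on the liver, had scores of 13958, 11614, 10366 and 13958 in Ctrl mice 1 to 4, 2503, 3808, 2732 and 1740 in Con A mice and 3547, 5255, 3921 and 3406 in Con A + MSCs mice. The lowest Ctrl mouse stood above every mouse given Con A, and the Con A + MSCs mice overlapped the Con A mice through Con A mouse 2. The group means were 12474 ± 1788 in Ctrl, 2696 ± 854 in Con A and 4032 ± 844 in Con A + MSCs (SD, n = 4). After Con A Ghr was 4.77-fold lower (log2 fold change -2.25, SE 0.22, adjusted p = 5.5e-06). With MSCs the log2 difference from Con A was 0.61 (95% CI 0.14 to 1.08, adjusted p = 0.0720), which was not called, although it was called without Con A mouse 2 (0.80, adjusted p = 0.0222). Against Ctrl the MSC-treated livers were 3.12-fold lower (log2 fold change -1.64, adjusted p = 1.2e-04). The order of the groups was thus Ctrl, Con A + MSCs, Con A, with the last pair of neighbours not separated by the test. The transcript in the table lies on the minus strand of chromosome 15 at chr15:3319009-3581842 (mm10), with 11 exons.

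Igf1, the endocrine product of GH signalling, had the smallest fitted change among the 7 genes that fell. Its scores were 12219, 12219, 12219 and 13948 in Ctrl, 7616, 7348, 6536 and 9867 in Con A, and 8238, 8238, 9413 and 7348 in Con A + MSCs. Every Ctrl mouse was above every treated mouse, and the treated groups lay over each other. The means were 12651 ± 865, 7842 ± 1426 and 8309 ± 847 (SD, n = 4). Igf1 fell 1.63-fold after Con A (log2 fold change -0.70, SE 0.14, adjusted p = 9.5e-04). The difference between the Con A groups was 0.09 (95% CI -0.20 to 0.39, adjusted p = 0.651), an interval that contains 0. Con A + MSCs was 1.53-fold below Ctrl (log2 fold change -0.61, adjusted p = 0.00393), close to the fold threshold, and that call was lost without Ctrl mouse 4 (-0.56, adjusted p = 0.0133) or without Con A + MSCs mouse 4 (-0.55, adjusted p = 0.0136). The transcript lies on the plus strand at chr10:87858265-87930895 (mm10), with 5 exons.

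Igfals encodes the acid-labile subunit, a secreted protein made mostly by hepatocytes that stabilizes the complex of IGF1 and IGFBP3 in blood. Among the 9 genes only promoter windows of Igfals held the letters TTCNNNGAA, the spaced palindrome bound by STAT proteins, on either strand. Promoter windows from 250 bases before to 50 after each RefSeq start (GRCm38.p6, the build of mm10) were found for all 9 genes, 14 windows in all, and 2 of the 3 windows of Igfals held the letters. No window of Igf1 or Hsd3b5 includes the start of the transcript in the table, so the sequence around those starts was not searched. The remaining Igfals window, at chr17:24878497-24878796, is the one that includes the start of the transcript in the table, and it did not hold them. They occur in 8.3% of 32851 promoter windows of the genome. Both windows are on the plus strand, with the match in capitals at 236 and 58 bases before the start site of their own transcript. The window at chr17:24877594-24877893 and the window at chr17:24877981-24878280 are shown because Igfals had the largest fall among the secreted members.
Igfals, upstream window: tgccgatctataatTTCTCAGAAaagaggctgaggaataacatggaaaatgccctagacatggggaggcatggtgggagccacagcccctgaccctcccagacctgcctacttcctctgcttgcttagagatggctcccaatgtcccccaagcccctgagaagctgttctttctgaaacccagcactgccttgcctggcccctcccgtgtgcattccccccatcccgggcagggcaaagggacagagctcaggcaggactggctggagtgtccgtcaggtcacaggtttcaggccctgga
Igfals, middle window: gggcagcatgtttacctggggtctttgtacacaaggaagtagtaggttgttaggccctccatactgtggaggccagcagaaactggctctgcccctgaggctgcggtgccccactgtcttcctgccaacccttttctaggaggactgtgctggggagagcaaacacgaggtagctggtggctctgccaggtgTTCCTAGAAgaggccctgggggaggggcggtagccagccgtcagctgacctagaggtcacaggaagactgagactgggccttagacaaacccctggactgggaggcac
These matches are letters in a window and no measurement of binding. The transcript in the table starts downstream of both printed windows, at chr17:24878770-24882008, with 2 exons on the plus strand, and its ends differ from the GENCODE M21 annotation.

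The Igfals scores were 1944, 2072, 3192 and 2216 in Ctrl, 172, 258, 196 and 127 in Con A and 400, 756, 372 and 179 in Con A + MSCs. No treated mouse came near the Ctrl range, and 3 of the 4 MSC-treated mice were above every Con A mouse, the exception being Con A + MSCs mouse 4. The means were 2356 ± 568, 188 ± 54.6 and 427 ± 240 (SD, n = 4). Igfals was 12.6-fold lower after Con A (log2 fold change -3.66, SE 0.35, adjusted p = 5.6e-06). With MSCs it was 2.06-fold above Con A, a log2 difference of 1.04 (95% CI 0.28 to 1.81) that was not called (adjusted p = 0.0633). The difference was called without Con A mouse 2 (1.21, adjusted p = 0.0435) or without Con A + MSCs mouse 4 (1.40, adjusted p = 0.0193). Against Ctrl, Con A + MSCs remained 6.12-fold lower (log2 fold change -2.61, adjusted p = 1.3e-04).

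Igfbp3, the main partner of IGF1 in the large complex, is made in the liver largely by cells other than hepatocytes. Its scores were low, with 578, 360, 263 and 448 in Ctrl, 234, 151, 238 and 345 in Con A, and 202, 102, 142 and 165 in Con A + MSCs. Con A mouse 4 lay inside the Ctrl range, so Ctrl and Con A overlapped, whereas every Con A + MSCs mouse was below every Ctrl mouse. The means were 412 ± 134, 242 ± 79.5 and 153 ± 41.9 (SD, n = 4). The fall after Con A was called at 1.70-fold (log2 fold change -0.77, SE 0.29, adjusted p = 0.0365), but the exact two-sided permutation test of the single gene gave p = 0.0571, and the call was lost in 6 of 12 fits that left out a mouse, those without Ctrl mouse 1, 2 or 4 or Con A mouse 1, 2 or 3, with adjusted p up to 0.111. The difference between the Con A groups was -0.64 (95% CI -1.26 to -0.02, adjusted p = 0.131). Con A + MSCs was 2.66-fold below Ctrl (log2 fold change -1.41, SE 0.29, adjusted p = 0.00209). Igfbp3 lies on the minus strand at chr11:7206086-7213897 (mm10), with 5 exons, and is the neighbour of Igfbp1.

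Igfbp1 was the gene that moved in the other direction. It encodes a small, rapidly regulated binding protein of the hepatocyte, whose transcription is held down by insulin and rises in fasting and stress. Its promoter window at chr11:7197537-7197836 on the plus strand (GRCm38.p6) was the single window among the 14 to hold TATTTTG or TGTTTTG on either strand, letters of the insulin response element read by FoxO factors, which occur in 10.2% of all promoter windows. The matches, in capitals, are CAAAACA on the reverse strand at 108 and TATTTTG at 97 bases before the start site, and the window is shown because Igfbp1 is the member that differed between the Con A groups.
Igfbp1, promoter window: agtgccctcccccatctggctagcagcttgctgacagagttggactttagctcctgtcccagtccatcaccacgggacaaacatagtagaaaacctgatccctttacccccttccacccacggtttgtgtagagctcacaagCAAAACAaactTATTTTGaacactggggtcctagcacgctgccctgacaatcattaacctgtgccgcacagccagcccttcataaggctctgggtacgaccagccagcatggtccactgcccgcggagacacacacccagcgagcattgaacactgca
The window includes the start of the transcript in the table, which runs on the plus strand at chr11:7197782-7202546 with 4 exons.

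In Ctrl mice Igfbp1 scored 4190, 2181, 656 and 3914. In Con A mice it scored 13937, 4374, 13212 and 29668, and in Con A + MSCs mice 3265, 720, 1417 and 3859. Every Con A mouse exceeded every mouse of the other groups, but Con A mouse 2 did so by little over Ctrl mouse 1. The spread within groups was wide, with the highest mouse 6.39-fold above the lowest in Ctrl, 6.78-fold in Con A and 5.36-fold in Con A + MSCs. The means were 2735 ± 1647, 15298 ± 10520.4 and 2315 ± 1487 (SD, n = 4). Igfbp1 rose 5.65-fold after Con A (log2 fold change 2.50, SE 0.70, 95% CI 0.97 to 4.02, adjusted p = 0.00928), a call that held when any mouse was left out, with adjusted p up to 0.0283. With MSCs it was 6.56-fold lower than in Con A (log2 fold change -2.71, SE 0.70, 95% CI -4.24 to -1.19, adjusted p = 0.0327). That call was lost without Con A mouse 1 (-2.66, adjusted p = 0.0866), 3 (-2.69, adjusted p = 0.0595) or 4 (-2.30, adjusted p = 0.0787), and without Con A + MSCs mouse 2 (-2.25, adjusted p = 0.0983) or 3 (-2.57, adjusted p = 0.0849). Both comparisons rest on the same 4 Con A mice. The direct difference between Con A + MSCs and Ctrl was -0.22 (95% CI -1.74 to 1.31, adjusted p = 0.828), and the interval is wide enough to hold differences over 2-fold either way.

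Igfbp2, a binding protein of the fetal and adult hepatocyte, fell after Con A. Ctrl mice scored 5387, 6154, 4927 and 5738, Con A mice 840, 827, 1358 and 2692, and Con A + MSCs mice 2340, 3084, 1328 and 1201. No treated mouse reached the Ctrl range and the treated groups overlapped, each with a range of over 2-fold. The means were 5552 ± 521, 1429 ± 877 and 1988 ± 891 (SD, n = 4). Igfbp2 was 4.38-fold lower after Con A (log2 fold change -2.13, SE 0.37, adjusted p = 4.0e-04) and 3.00-fold lower in Con A + MSCs than in Ctrl (log2 fold change -1.59, adjusted p = 0.00465). Between the Con A groups the difference was 0.54 (95% CI -0.25 to 1.34, adjusted p = 0.308). The transcript lies on the plus strand at chr1:72824503-72852474 (mm10), with 4 exons.

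Igfbp4, a binding protein that generally inhibits IGF action, was the member with no call in any comparison. Its scores were 16310, 15068, 18904 and 16310 in Ctrl, 15068, 18904, 15068 and 8890 in Con A, and 15068, 17639, 17639 and 16310 in Con A + MSCs. All groups overlapped, and only Con A mouse 4 stood below the others. The means were 16648 ± 1614, 14483 ± 4144 and 16664 ± 1235 (SD, n = 4). The log2 difference was -0.25 after Con A (95% CI -0.67 to 0.17, adjusted p = 0.297) and 0.25 with MSCs against Con A (95% CI -0.17 to 0.67, adjusted p = 0.379). Against Ctrl, Con A + MSCs differed by 0.00 (95% CI -0.42 to 0.43, adjusted p = 0.991), an interval around 0. Igfbp4 lies on the plus strand at chr11:99041244-99054392 (mm10), with 4 exons.

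Cux2, the female-typical transcriptional repressor, was the member with the largest fall. It scored 382, 428, 681 and 654 in Ctrl, 2, 0, 4 and 2 in Con A and 2, 1, 1 and 1 in Con A + MSCs, with a score of 0 being a listed value in 1 mouse. Treated livers were near the bottom of the scale, and no treated mouse came near the Ctrl range. The log2 fold change after Con A was -7.65 (SE 0.57, adjusted p = 9.0e-07) with 1 added to each score and -5.47 with 10 added, so the fold depends on that constant. Con A + MSCs differed from Ctrl by -7.88 (adjusted p = 1.3e-06), or by -5.56 with 10 added. Between the Con A groups the difference was -0.23 (adjusted p = 0.807), at scores too low to tell the groups apart. The transcript lies on the minus strand at chr5:121858387-122049851 (mm10), with 23 exons, and its ends differ from GENCODE M21.

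Hsd3b5, the male-typical enzyme, scored 8, 130, 132 and 141 in Ctrl, 6, 5, 3 and 0 in Con A and 2, 8, 0 and 0 in Con A + MSCs. Ctrl mouse 1 stood with the treated mice, and the other Ctrl mice were far above them. The fall after Con A was called (log2 fold change -4.25, SE 1.21, adjusted p = 0.00970, or -2.69 with 10 added to each score). The fall in Con A + MSCs against Ctrl was called as well (-4.91, adjusted p = 0.00650, or -2.82 with 10 added), although Con A + MSCs mouse 2 equalled Ctrl mouse 1 and the exact two-sided permutation test gave p = 0.0571. Between the Con A groups the difference was -0.66 (adjusted p = 0.727). The gene belongs to a cluster of near-identical Hsd3b copies on chromosome 3, so reads may have been shared with its neighbours and its values are uncertain. Its transcript lies on the minus strand at chr3:98618636-98630309 (mm10), with 3 exons, and its ends differ from GENCODE M21.

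**Figure D2:**
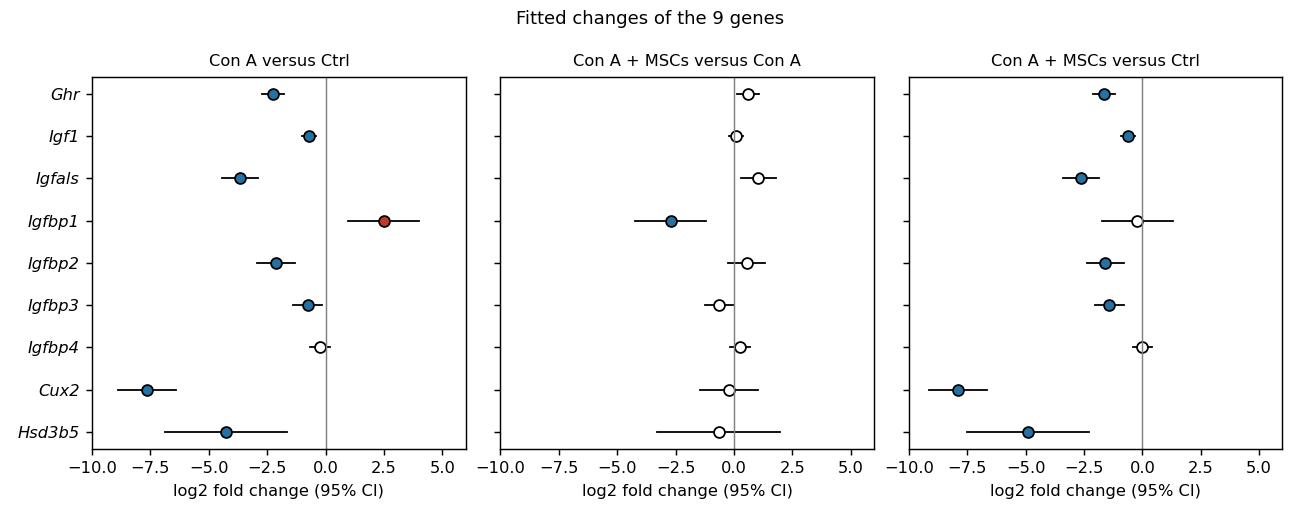
Fitted log2 fold changes of the 9 genes with 95% confidence intervals in the 3 comparisons, with genes called up in red, called down in blue and not called in white. After Con A 7 genes are called down and Igfbp1 up, between the Con A groups Igfbp1 alone is called, and 7 genes are called down in Con A + MSCs against Ctrl.

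Con A + MSCs livers were compared with Ctrl directly as well. There 7 of the 9 genes were called down and 0 up by limma, the exceptions being Igfbp1 and Igfbp4, and 0 were higher at an unadjusted p under 0.05. The 7 include Cux2 and Hsd3b5, which reached 64 only in Ctrl mice and under a filter at that score could only fall. Over all genes 13.1% were called down and 13.6% up, 26.7% in either direction. In 6 of the 9 genes every MSC-treated mouse was below every Ctrl mouse and in 0 every one was above, against 17.3% and 20.6% of all genes. The median log2 fold change of the 9 genes was -1.59 against Ctrl and 0.09 against Con A, and those of all genes were 0.041 and 0.00024. The largest differences from Con A, in either direction, were those of Igfbp1 at -2.71 and Igfals at 1.04.

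Differences within a mouse set members of the axis against each other. The difference of log2(score + 1) between Igfbp1 and Igf1 was -1.54, -2.49, -4.22 and -1.83 in Ctrl, 0.87, -0.75, 1.02 and 1.59 in Con A and -1.33, -3.51, -2.73 and -0.93 in Con A + MSCs. All Con A mice were above all mice of the other groups, with Con A mouse 2 nearest to them. The difference between Igfals and Igf1 averaged -2.45 ± 0.34 in Ctrl, -5.40 ± 0.63 in Con A and -4.45 ± 0.79 in Con A + MSCs (SD, n = 4). It was lower in every treated mouse than in every Ctrl mouse, that is, the change of Igfals exceeded that of Igf1. These differences compare genes of different length, and only their change between groups can be read.

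**Figure D3:**
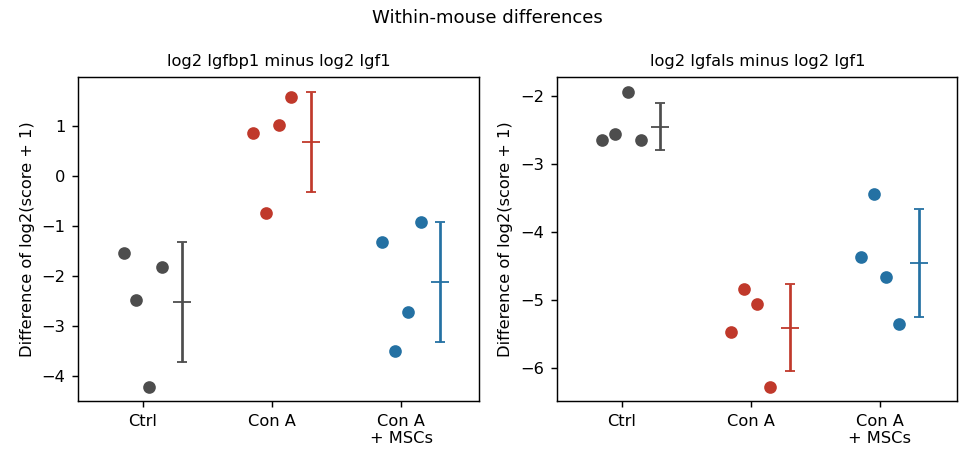
Differences of log2(score + 1) within each mouse, for Igfbp1 minus Igf1 (left) and Igfals minus Igf1 (right), with 1 point per mouse and the mean ± SD of 4 mice beside it. The left panel is highest in the Con A group, at -0.75 to 1.59, and the right panel is highest in Ctrl, at -2.65 to -1.94.

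The GH receptor acts through a kinase, transcription factors and feedback inhibitors, and 23 genes of this signalling were all in the table. After Con A 8 rose and 4 fell, against 19.5% and 19.2% of all genes, so the share that fell was near the background. The median log2 fold change was 0.40. The transcription factor Stat5b, which carries most of the GH signal in liver, fell from scores of 1359 to 1876 in Ctrl to 621 to 978 in Con A (log2 fold change -0.94, SE 0.16, adjusted p = 2.9e-04) and was 754 to 904 with MSCs. Socs2, a GH-induced feedback inhibitor, fell from 461 ± 89.2 to 132 ± 73.1 (log2 fold change -1.92, SE 0.30, adjusted p = 2.1e-04) and was 108 ± 26.7 with MSCs (SD, n = 4). Prlr, the related prolactin receptor, fell by 3.12 (SE 0.15, adjusted p = 4.9e-08) and the adaptor Sh2b3 by 0.85 (SE 0.12, adjusted p = 7.2e-05) on the log2 scale.

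Genes of the list that rose included inhibitors of JAK kinases. Socs1, one of them, rose from 7 to 19 in Ctrl to 396 to 735 in Con A (log2 fold change 5.46, SE 0.30, adjusted p = 1.0e-07). Lepr, the leptin receptor, rose by 2.75 (SE 0.54, adjusted p = 0.00103) and Socs3, another JAK inhibitor, by 2.15 (SE 0.35, adjusted p = 2.8e-04). Jak2 was 0.41 higher on the log2 scale (adjusted p = 0.0112), under the fold threshold. Neither Stat5a (-0.36, adjusted p = 0.177) nor Cish, another STAT5 target (0.60, adjusted p = 0.106), was called. With MSCs against Con A 0 genes of the list rose by limma, 0 at an unadjusted p under 0.05, and 3 of 23 fell, where 4.2% of all genes rose and 4.38% fell. They were Socs1 (log2 fold change -1.44, SE 0.30, adjusted p = 0.0224), the hepatocyte factor Onecut1 (-1.0, SE 0.23, adjusted p = 0.0255) and the phosphatase Ptpn11 (-0.85, SE 0.22, adjusted p = 0.0331).

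Of 24 further genes for IGF ligands, receptors, binding proteins and binding-protein proteases, 14 were in the table, and Igf2 and Igf1r were among the 10 not analysed here. After Con A 4 rose and 4 fell, against 19.5% and 19.2% of all genes. The binding protein Igfbp5 fell from 380 ± 71.1 to 17.8 ± 7.68 (SD, n = 4, log2 fold change -4.43, SE 0.84, adjusted p = 8.1e-04) and the IGFBP-related Igfbp7 by 1.75 on the log2 scale (SE 0.22, adjusted p = 3.9e-05). The protease Htra1 fell by 1.74 (SE 0.43, adjusted p = 0.00462) and the lysosomal protease Ctsd by 0.60 (SE 0.12, adjusted p = 0.00130). The extracellular proteases Mmp9 (4.91, SE 0.55, adjusted p = 1.6e-05), Adamts1 (2.01, SE 0.20, adjusted p = 8.6e-06), Mmp14 (0.72, SE 0.12, adjusted p = 2.5e-04) and Adam9 (0.63, SE 0.14, adjusted p = 0.00260) rose. Insr, the insulin receptor, scored 1861 to 2350 in Ctrl and 1428 to 2229 in Con A (-0.12, adjusted p = 0.484), and Igf2r, which clears IGF2, was 0.55 higher (adjusted p = 0.0191) without passing the fold threshold. With MSCs 2 of the 14 genes fell against Con A, where 4.38% of all genes did, namely Adamts1 (-1.07, SE 0.20, adjusted p = 0.0198) and Adam9 (-0.60, SE 0.14, adjusted p = 0.0270).

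Downstream of the insulin and IGF receptors all 25 listed genes were in the table, and 6 rose and 6 fell after Con A, shares near the 19.5% and 19.2% of all genes. Phlda3, an AKT inhibitor, rose by 2.88 (SE 0.24, adjusted p = 2.2e-06), Trib1 by 1.34 (SE 0.22, adjusted p = 2.4e-04), Irs2, the fasting-responsive receptor substrate, by 1.24 (SE 0.50, adjusted p = 0.0488) and Trib3 by 0.99 (SE 0.27, adjusted p = 0.00825). G6pc, which releases glucose from the liver, fell by 1.57 (SE 0.24, adjusted p = 1.9e-04), the insulin receptor inhibitor Grb14 by 1.19 (SE 0.18, adjusted p = 1.5e-04), Irs1 by 0.99 (SE 0.29, adjusted p = 0.0126) and Tsc1 by 0.78 (SE 0.16, adjusted p = 0.00110). With MSCs against Con A, where 4.2% of all genes rose and 4.38% fell, 1 of the 25 genes rose, Grb14 (0.79, SE 0.18, adjusted p = 0.0254), and 4 fell, led by Irs2 (-1.96, SE 0.50, adjusted p = 0.0316) and Phlda3 (-0.89, SE 0.24, adjusted p = 0.0384). The others were Trib1 (-0.80, SE 0.22, adjusted p = 0.0365) and the kinase Pdpk1 (-0.67, SE 0.20, adjusted p = 0.0478). Irs2 scored 93 to 343 in Ctrl, 348 to 795 in Con A and 57 to 272 in Con A + MSCs, so its Con A mice were above all others.

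**Figure D4:**
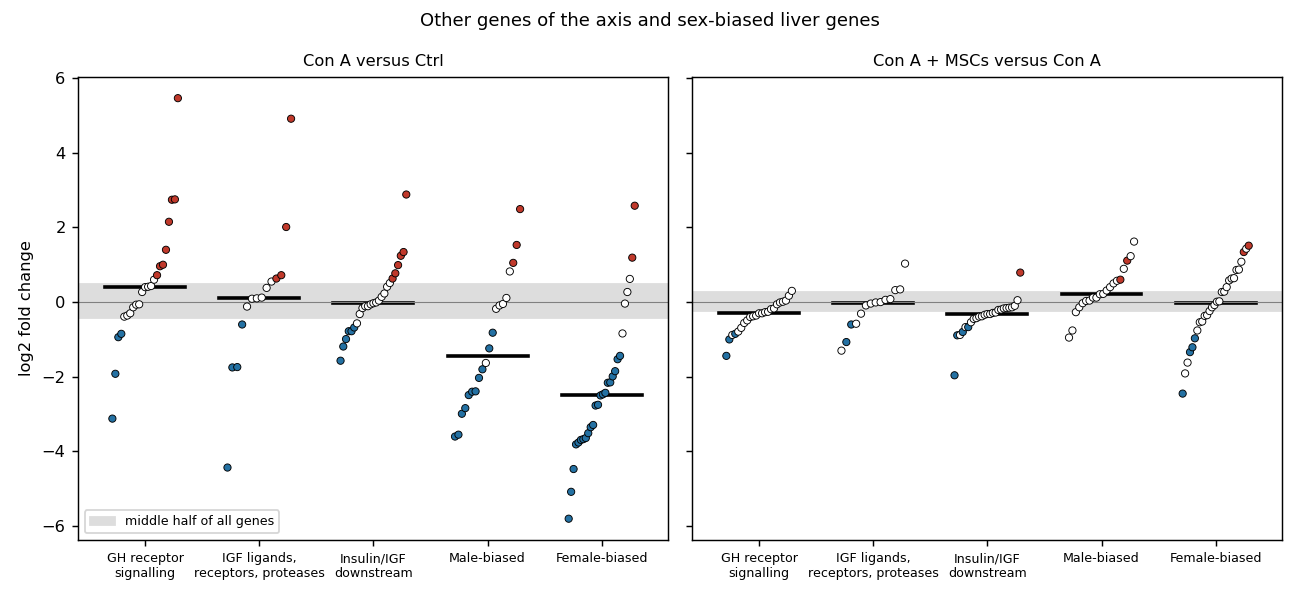
Log2 fold changes of the genes of 5 lists, 1 point per gene in rising order, for Con A against Ctrl (left) and Con A + MSCs against Con A (right), with called genes in red (up) or blue (down), the list median as a bar and the range from lower to upper quartile of all genes in grey. After Con A the medians of the male-biased and female-biased lists are -1.44 and -2.49, and those of the other lists lie between -0.03 and 0.40.

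Cux2 and Hsd3b5 stand for the liver genes that GH sets differently in females and males, so lists of such genes were read beside them, without the 9 genes. Of 28 female-biased genes, all in the table, 22 fell and 2 rose after Con A (median log2 fold change -2.49). Of 24 male-biased genes 20 were in the table, of which 11 fell and 3 rose (median -1.44). Over all genes 19.2% fell and 19.5% rose. Female-biased genes that fell most were the oxidase Hao2 (-5.80, SE 0.50, adjusted p = 2.5e-06), Cyp2b13 (-5.08, SE 0.35, adjusted p = 4.9e-07), A1bg (-4.47, SE 0.64, adjusted p = 1.1e-04) and the transporter Slc22a27 (-3.81, SE 0.32, adjusted p = 2.1e-06). Male-biased genes that fell most were Ugt2b1 (-3.60, SE 0.22, adjusted p = 2.2e-07), Cml1 (-3.55, SE 0.29, adjusted p = 2.0e-06), the transporter Slco1a1 (-2.99, SE 0.45, adjusted p = 1.4e-04) and Selenbp2 (-2.84, SE 0.70, adjusted p = 0.00423). Both kinds therefore included falling genes, as Cux2 and Hsd3b5 did.

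The exceptions that rose after Con A were, among female-biased genes, the oestrogen sulphotransferase Sult1e1 (2.58, SE 0.65, adjusted p = 0.00511) and Cyp4a14 (1.19, SE 0.18, adjusted p = 1.9e-04). Among male-biased genes they were Cyp4a12a (2.49, SE 0.53, adjusted p = 0.00163), Gstp2 (1.53, SE 0.51, adjusted p = 0.0225) and Gstp1 (1.05, SE 0.13, adjusted p = 4.8e-05). Between the Con A groups 4.2% of all genes rose with MSCs and 4.38% fell. Of the 28 female-biased genes 2 rose, Cyp2b13 (1.51, adjusted p = 0.0255) and Cyp2b9 (1.34, adjusted p = 0.0281), and 4 fell, led by Cyp2c69 (-2.45, adjusted p = 0.0253) and Prom1 (-1.34, adjusted p = 0.0198), with Cyp3a44 (-1.21, adjusted p = 0.0480) and Acot3 (-0.97, adjusted p = 0.0473). Of the 20 male-biased genes 2 were called, Cml1 (1.11, adjusted p = 0.0344) and Nudt7 (0.60, adjusted p = 0.0462), both higher. Many of these genes have close paralogs in clusters, such as the Cyp2b and Cyp2c genes, and their scores may hold shared reads.

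The sex of the mice bears on Cux2 and Hsd3b5. The labels give none and the study's methods describe male animals, yet Xist, the transcript of the inactive X chromosome, scored 10956 to 29687 over the 12 mice. Kdm5d, a Y-linked gene with a close X-linked copy, scored 202 to 341, and Ddx3y, Uty and Eif2s3y were not analysed here. Xist was read in every mouse of every group, and its groups overlapped in all 3 comparisons. Its log2 difference was 0.58 after Con A (adjusted p = 0.0512) and 0.09 between the Con A groups (adjusted p = 0.807), neither called, and Con A + MSCs was called higher than Ctrl (0.67, SE 0.23, adjusted p = 0.0363). The part of sex in the values of Cux2 and Hsd3b5 was not tested.

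Markers of other cell types were read in the same livers, beside the 19.5% of all genes that rose and the 19.2% that fell after Con A. All 8 neutrophil and monocyte markers in the table, of 10 listed, rose after Con A, and their summed score went from 285 to 439 in Ctrl to 1506 to 2461 in Con A and 1471 to 2589 in Con A + MSCs. S100a8, S100a9, Cxcr2, Ly6c2 and Retnlg stayed under 64 in every Ctrl mouse. Under a filter at that score they could only rise. Kupffer cell and macrophage markers, 10 of 11 in the table, fell in 9 cases and rose in 1, from sums of 5813 to 9268 to 1801 to 2676 and 906 to 2583. Sinusoidal endothelial markers, 10 of 10, fell in 7 cases and rose in 1, from 3740 to 5380 to 1721 to 2464 and 2066 to 2778. Stellate cell and fibroblast markers, 11 of 11, fell in 5 cases and were not called in 6, with sums that overlapped between the groups, at 7396 to 11898, 7439 to 8429 and 5628 to 11406. Dcn alone scored 2584 to 4938, 4466 to 5402 and 2870 to 3810, and weighs heavily in these sums. They therefore hide falls of lower-scoring markers, such as Colec11 with a mean of 465 in Ctrl and 12.8 in Con A. Cholangiocyte markers, 4 of 6, rose in 1 case, near the share of all genes, with overlapping sums of 2336 to 4493, 2396 to 13277 and 2249 to 6488. Most of these sums is Spp1, at 2084 to 4202, 1992 to 12230 and 1782 to 6164. The 2 of 11 T, NK and B cell markers in the table both rose, from sums of 8 to 36 to 88 to 192 and 136 to 152. They are Cd8a and Nkg7, which stayed under 64 in Ctrl and under such a filter could only rise. Conversely, Timd4, Vsig4, Clec4g, Oit3 and Colec11 would meet the filter only through Ctrl and could only fall.

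Hepatocyte markers, 11 of 12 in the table, rose in 1 case and fell in 4 after Con A, against 19.5% and 19.2% of all genes. Their sum was 1178114 to 1518711 in Ctrl, 1080537 to 1149512 in Con A and 1147666 to 1155485 in Con A + MSCs, but 4 of them sat at the largest value of the table in some mouse, 1 of them in every mouse. No listed marker in the table was at 0 in all mice of a group. In such bulk RNA fewer cells of a type and less RNA per cell cannot be told apart, and the part of these cell types in the changes of Ghr, Igfbp3, Igfbp5, Igfbp7 and the other genes of the axis was not tested. Over all genes the lowest correlation between mice of a group was 0.928, between Con A mice 2 and 4. Con A mouse 4 had the lowest median correlation with its own group, 0.944 against 0.959 to 0.980 in the other mice, and it held the highest or lowest Con A score of Ghr, Igf1, Igfals, Igfbp1, Igfbp2, Igfbp3, Igfbp4 and Hsd3b5. Without it the only call among the 9 genes that changed was that of Igfbp1 between the Con A groups.

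Genes with the pattern most like each member over the 12 mice, by Pearson's r of log2(score + 1), are given as a description, since all points share the same groups and scale. For Ghr they were Fbxo3 (r = 0.994), Pcca (0.991) and Nudt7 (0.991), and for Igf1 Gpc6 (0.973), Nars2 (0.965) and Pamr1 (0.954). For Igfals they were Slc22a30 (0.993), Cml1 (0.989) and Keg1 (0.987), and for Igfbp1 Mafk (0.974), Sesn2 (0.965) and Ccp110 (0.93). For Igfbp2 they were Gabbr1 (0.957), Adssl1 (0.945) and Prss8 (0.944), for Igfbp3 Acacb (0.925), Acsl5 (0.924) and Scd1 (0.921), and for Igfbp4 Antxr2 (0.96), Hao1 (0.944) and Dhrs4 (0.939). Cux2 was followed by Serpina1b (0.988), Slc22a26 (0.981) and Aatk (0.98), and Hsd3b5 by Dsg2 (0.972), Slco1a1 (0.966) and Tbc1d9b (0.964).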

How the data were processed

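Liver RNA of 12 mice was sequenced, 4 in each of the Ctrl, Con A and Con A + MSCs groups, which were taken from the sample labels. The authors deposited one score per gene and mouse, a whole number already normalized between mice. That every gene reached 64 in at least 2 mice was read from the scores themselves. The submitters' processing notes name Bowtie2 2.2.1, RSEM 1.2.18 and mm10. How the scores were scaled is not given in the sources used here, and depth is unknown. The study's methods and the labels differ in the number of cells and the age of the mice, and the values of the labels are given.

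After adding 1, log2 scores were modelled with limma 3.58.1 (lmFit, eBayes with trend; R 4.3.3) for 3 groups, 12 mice and no covariates, with Benjamini-Hochberg adjusted p-values. A count test had been planned for counts and was not run on scores. The 9 genes and the lists were chosen with earlier results of these data known. In each list up to 4 called genes in each direction were named by fold after Con A, up to 2 between the Con A groups, and 9 central pathway genes whatever their change (Igf1r was not analysed here). Ptpn11, Trib1, Pdpk1, Cyp3a44 and Acot3 were named between the Con A groups after their values were seen, to complete small counts. A gene that meets the rule is not reported here. Single genes were checked with exact permutation tests (scipy 1.17.1, Python 3.11.15). Promoter windows and positions come from RefSeq (GRCm38.p6) and GENCODE M21. Alternatives were a constant of 10, a filter at a mean score of 100, centring on the median, quantile normalization, no trend, the 8 mice compared, unadjusted p, other fold thresholds, a replicate block and each mouse left out.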

Additional observations from a re-analysis of the deposited data

Results flagged for a closer look

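Among the 9 genes and the 9 central genes of the pathway in the table, 54 groups of 4 mice were examined with Dixon's test at the 95% level, and 3 held a mouse far from the others, where chance alone gives about 1 in 20, or 2.7. Hsd3b5 scored 8 in Ctrl mouse 1, while the other Ctrl mice scored 130 to 141. Igf1 scored 13948 in Ctrl mouse 4, while the other Ctrl mice shared a score of 12219. Cux2 scored 2 in Con A + MSCs mouse 1, while the other mice of that group scored 1, a difference of the smallest step on this scale.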

How the results depend on the processing

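Of the 27 log2 fold changes of the 9 genes, 0 of those called changed direction under any alternative run, and 22 stayed called or not called in every fit that left out a mouse. The unadjusted p and the other fold thresholds leave the estimate as it is and could not change a direction. Centring and quantile normalization could do little, since the scores already shared their median and upper quartile. With a fold threshold of 2, genes called after Con A numbered 2391 in all against 4379, 7 against 12 for GH receptor signalling, 5 against 8 for IGF ligands and binding proteins and 5 against 12 downstream of the insulin receptor. Between Con A + MSCs and Con A that threshold gave 353 against 969 in all, and 1 gene each for the GH, IGF, insulin and male-biased lists, against 3, 2, 5 and 2. Against Ctrl it gave 1539 against 3015 in all, 6 against 10 for the GH list and 4 against 8 for the insulin list. With no fold threshold the Con A groups differed in 1485 genes, and 4604 in all and 13 of the insulin list between Con A + MSCs and Ctrl. With the unadjusted p the Con A groups differed in 1697 genes, with 2 of the 9 genes up (Ghr, Igfals) and 2 down (Igfbp1, Igfbp3), and in 5 GH, 5 male-biased and 11 female-biased genes. The male-biased list had 1 call without the trend and 0 with the 8 mice compared, where the unadjusted p in all 12 mice gave 5.

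Samples with the same replicate number had correlations of their deviations of -0.118 to 0.375, and the own number was best in 5 of 12 cases. Replicate 4 was best with its own number in each comparison (0.168, 0.244 and 0.112), and the 0.375 was replicate 2 between the Con A groups. Whether the numbers mark a pairing cannot be told from these correlations. With the replicate number as a block the Con A groups differed in 1297 genes, and 1 of the 9 genes was called up (Igfals, 1.04) and 2 down (Igfbp1, and Igfbp3 at -0.64), and the block changed no other call of the 9 genes.

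Leaving out each mouse in turn, calls between the Con A groups ranged from 7 (without Con A mouse 1 or Con A + MSCs mouse 3) to 1575 (without Con A mouse 2), with 18 without Con A + MSCs mouse 2 and 285 without Con A mouse 4. Of the 9 genes 0 to 2 were called up and 0 to 1 down, and of the lists 0 to 5 (GH), 0 to 2 (IGF), 0 to 7 (insulin), 0 to 3 (male-biased) and 0 to 8 (female-biased). Counts of calls between the Con A groups therefore rest on single mice. The single-gene permutation test gave p above 0.05 for Igfbp3 after Con A and Hsd3b5 with MSCs against Ctrl. DESeq2 was not run, because it needs counts. Scores near 0 (Cux2, Hsd3b5) have no known depth, so their folds are not bounds.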

Other observations

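Other differences of log2(score + 1) within a mouse were computed for Igfbp2 minus Igfbp1, binding proteins of the hepatocyte that went in opposite directions after Con A. They averaged 1.33 ± 1.17 in Ctrl, -3.30 ± 0.68 in Con A and -0.04 ± 1.58 in Con A + MSCs (SD, n = 4), and ranged from 0.36 to 2.91, from -4.05 to -2.40 and from -1.68 to 2.10. Every Con A mouse was below every mouse of the other groups. Hsd3b5 minus Cux2 ranged from -5.41 to -1.71 in Ctrl, from -1.58 to 2.58 in Con A and from -1.0 to 2.17 in Con A + MSCs, where both genes were near the bottom of the scale.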
